A study of Mus musculus with 16 samples.

Results

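The transcription factor genes Cebpa, Cebpb, Cebpd, Cebpe and Cebpg of the C/EBP family, Spi1 (which encodes PU.1) and Gfi1 were followed in 4 populations of myeloid cells from healing mouse knees. These 7 genes were picked by name from the 20200 genes of the count table, and all 7 were among the 11998 genes tested. Gfi1 entered the test through populations other than CX3CR1+ macrophages, in which it and Cebpe were low. Adult C57BL/6 wild-type mice underwent anterior cruciate ligament reconstruction (ACLR), in which a tendon graft is fixed in tunnels drilled through femur and tibia, and cells were taken from the interface tissue around the graft on day 1 or day 14. All gates began with live CD45+ cells negative for lineage markers, CD34 and c-kit among them. CD9+ macrophages were Ly6G- CD11b+ F4/80+ CD9+, CX3CR1+ macrophages carried the same first markers with CX3CR1 and without CD9, F4/80- myeloid cells were Ly6G- CD11b+ F4/80-, and neutrophils were Ly6G+ Ly6C+. Each population had 2 libraries on each day, 16 in all, and each library pooled the cells of several mice, so the spread between libraries is that between pools. Every mouse was operated, and no library from an unoperated knee was analysed here.

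C/EBP proteins are basic leucine zipper factors that bind DNA as dimers with each other. C/EBPα works with PU.1, an ETS factor needed by all myeloid lineages, to open the enhancers of granulocytes and monocytes. C/EBPβ and C/EBPδ are the family members best known for the response to infection and cytokines, C/EBPε drives the late granule genes of neutrophils and eosinophils, and C/EBPγ has no activating domain and mostly acts as a dimer partner. Gfi1 is a zinc finger repressor that favours granulocytes over macrophages. In bulk samples a lower level can mean fewer cells of a type or less RNA per cell, and these cannot be told apart.

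The sorted libraries matched their gates in part. Levels are given as CPM, the counts of a gene relative to all counts of its library, scaled with the trimmed mean of M values (TMM). All 8 macrophage markers lay above the detection floor of 3 counts in both macrophage populations, with summed levels of 994 to 2238 CPM in CD9+ and 1477 to 2211 CPM in CX3CR1+ libraries, against 192 to 247 CPM in F4/80- cells. The 8 neutrophil markers summed to 32050 to 55420 CPM in neutrophils and to 445 to 1074 CPM in CX3CR1+ macrophages. They also summed to 2330 to 7683 CPM in CD9+ macrophages and 11910 to 15900 CPM in F4/80- cells, both gated as Ly6G-. S100a8 and S100a9 made up most of these sums, with 1901 and 4854 CPM of the 7197 CPM in day 1 CD9+ library 1. Csf3r was lower in CD9+ (91.3 to 156 CPM) than in CX3CR1+ libraries (210 to 238 CPM). So was Mmp8 (21.7 to 87.0 against 151 to 220 CPM). Cxcr2, Mgam and Retnlg were higher in CD9+ libraries on each day. Ly6g read at most 4.99 CPM in CD9+ and 10.1 CPM in F4/80- cells, against at least 81.7 CPM in neutrophils. The 9 eosinophil markers summed to 665 to 677 CPM in day 1 and to 7258 to 11780 CPM in day 14 CD9+ libraries, and the progenitor markers (Cd34, Elane, Mpo, Prtn3, Ctsg and Myb) were highest in F4/80- cells at 2270 to 3064 CPM. A pair of libraries stood apart. CD9+ macrophages of day 1 had the least similar libraries, with a correlation of 0.935 over genes (0.976 to 0.988 in the other groups), and their neutrophil markers summed to 7197 and 2330 CPM. The day 1 neutrophil libraries differed 11.7-fold in Cebpb, a difference that 8 of the 11998 tested genes exceeded.

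**Figure D1:**
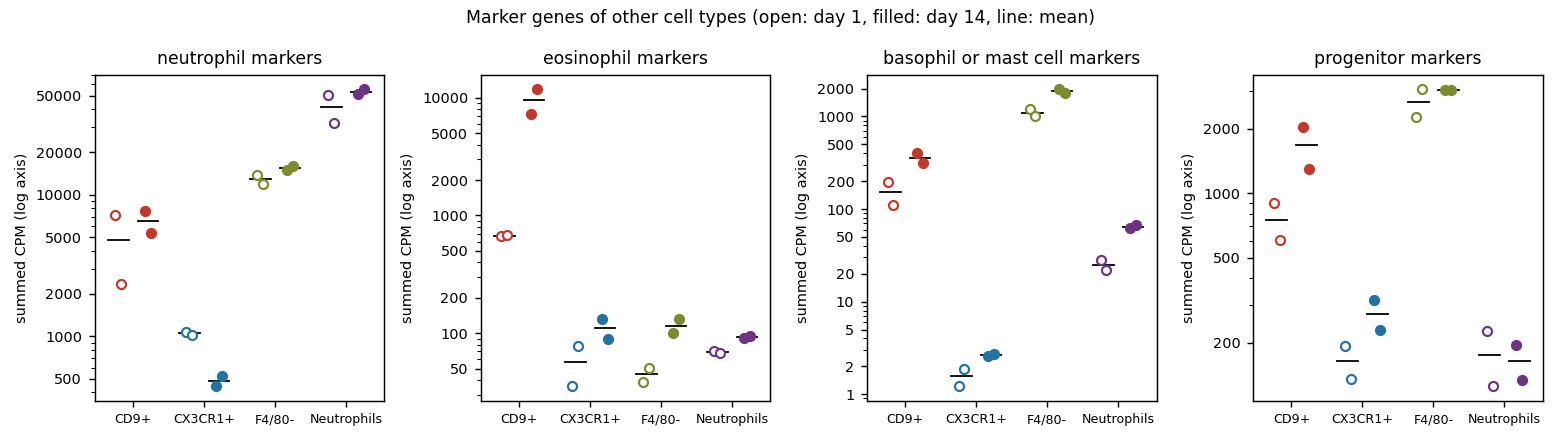
Summed CPM (log axis) of the neutrophil, eosinophil, basophil or mast cell and progenitor marker lists in the 16 libraries, 1 point a library (open on day 1, filled on day 14) with a line at the mean of each group. Neutrophil markers, mostly S100a8 and S100a9, lie at 2330 CPM or above in every CD9+ and F4/80- library. Eosinophil markers are highest in the day 14 CD9+ libraries, at 7258 to 11780 CPM.

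The first question of the design was which of the 7 genes changed between days 1 and 14 in each population. A gene was called when edgeR's quasi-likelihood test gave a Benjamini-Hochberg adjusted p under 0.05 over all tested genes and the log2 fold change (log2FC) was at least 1 in size. Of the 28 tests over time, 7 were called, all with higher levels on day 14, and 8 others passed on p alone. The days were sampled in different mice. Any difference in collection or library preparation that went with the day cannot be told apart from a change over time. In CD9+ macrophages Cebpa and Gfi1 were called, against a share of 8.23% of all tested genes. In CX3CR1+ macrophages Cebpa and Cebpb were called, beside 5.86% of all genes. The same 2 genes were called in F4/80- cells, beside 3.25%, and Gfi1 alone was called in neutrophils, beside 14.1%. No call was lower on day 14 in these tests by edgeR. Of the lower values, Cebpg in neutrophils (log2FC -0.87, adjusted p = 0.00188) and Spi1 in CD9+ macrophages (-0.26, unadjusted p = 0.025) had an unadjusted p under 0.05.

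**Figure D2:**
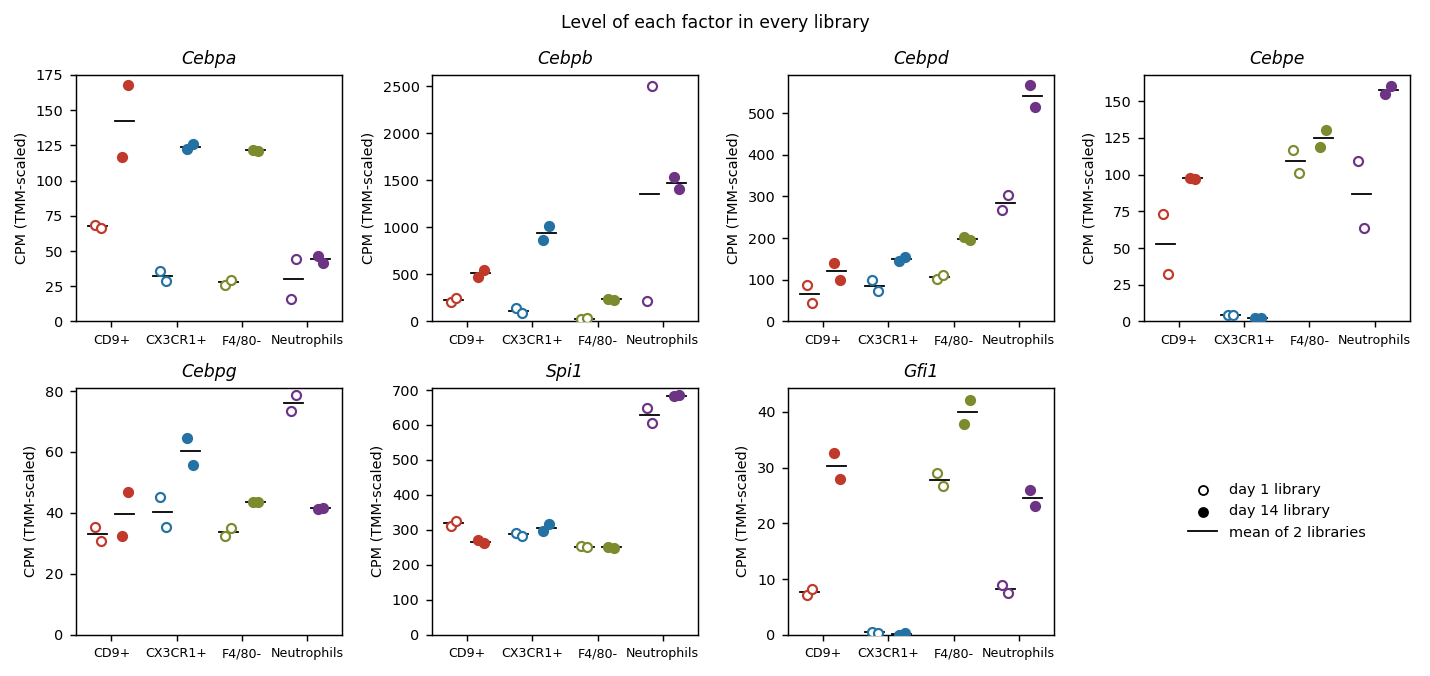
CPM (linear axes) of the 7 genes in the 16 libraries, 1 point a library (open on day 1, filled on day 14) with a line at the mean of each group. Spi1 hardly moves within a population, Cebpa and Cebpb are higher on day 14 in CX3CR1+ and F4/80- cells, and Cebpe and Gfi1 are near the bottom of the axis in CX3CR1+ macrophages.

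Spi1 was the steadiest of the 7 genes over time. It read 311 and 326 CPM in the day 1 CD9+ libraries and 270.0 and 262 CPM on day 14. CX3CR1+ macrophages held 292 and 283 CPM on day 1 and 297 and 316 CPM on day 14, and F4/80- cells 254 and 250.1 CPM and then 251 and 249 CPM. Neutrophils held more, 649 and 605 CPM on day 1 and 683 and 684 CPM on day 14, so that every neutrophil library lay above every library of the other populations. The day 14 minus day 1 log2FC was -0.26 in CD9+ (95% confidence interval -0.48 to -0.038), 0.090 in CX3CR1+ (-0.13 to 0.31), -0.010 in F4/80- (-0.23 to 0.21) and 0.12 in neutrophils (-0.098 to 0.35). None passed the test, the lowest adjusted p being 0.0999 in CD9+ macrophages (edgeR). On day 14, Spi1 was 2.57-fold higher in neutrophils than in CD9+ macrophages (edgeR, adjusted p = 3.52e-08), 2.23-fold higher than in CX3CR1+ macrophages (1.43e-07) and 2.73-fold higher than in F4/80- cells (2.01e-08). On day 1 the difference from CD9+ macrophages was 1.97-fold and passed on p alone (adjusted p = 1.05e-06). The size of these differences rests on the scaling: with library sizes alone the median of all genes moved by 0.33 to 0.61 in the 6 comparisons with neutrophils, and the log2FC of Spi1 there lay between -0.55 and -0.89, so that none of the 5 calls was made although each adjusted p stayed at or under 0.000268.

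Cebpa, the family member that commits progenitors to the myeloid lineage and restrains their division, rose in the 3 populations outside the neutrophil gate. The day 1 CD9+ libraries held 68.6 and 66.3 CPM and the day 14 libraries 117 and 168 CPM. In CX3CR1+ macrophages the level went from 35.9 and 28.8 CPM to 122 and 126 CPM, and in F4/80- cells from 25.8 and 29.7 CPM to 122 and 121 CPM. The days did not overlap in any of the 3 populations, and on day 14 all 6 libraries lay within 117 and 168 CPM. Here and below, such a separation of 2 libraries from 2 carries little weight alone. An exact permutation test of it cannot give a p under 0.333, and the share of all genes separated in this way was not counted. The rise was 2.11-fold in CD9+ (log2FC 1.08 ± 0.30, SE, n = 2 and 2, edgeR adjusted p = 0.0234), 3.83-fold in CX3CR1+ (1.94 ± 0.31, 0.000711) and 4.38-fold in F4/80- cells (2.13 ± 0.31, 0.00072). The call in CD9+ macrophages was lost without day 1 library 2 (log2FC 1.06, adjusted p = 0.0633) or day 14 library 2 (0.80, 0.175), in a fit of the 4 libraries compared (1.09, 0.0536) and in glmTreat against 1.5-fold (0.207). Neutrophil libraries held 15.9 and 44.1 CPM on day 1 and 46.6 and 41.5 CPM on day 14, and the log2FC of 0.56 did not pass (adjusted p = 0.205). On day 1 CD9+ macrophages already held 2.08-fold more Cebpa than CX3CR1+ macrophages (edgeR, adjusted p = 0.0284), a call that was lost without day 1 CX3CR1+ library 1 (log2FC 1.21, adjusted p = 0.086) or library 2 (0.89, 0.2), and also with scaling by library size (0.82, 0.0743) or upper quartile (0.99, 0.0378), in glmTreat against 1.5-fold (adjusted p = 0.229) and with an offset for GC content (0.83, 0.0575). On day 14 the 3 populations could not be ordered, with differences between them of at most 1.17-fold and adjusted p of 0.688 or more, and each exceeded neutrophils, by 3.23-fold (CD9+), 2.82-fold (CX3CR1+) and 2.76-fold (F4/80-), with adjusted p of 0.00019, 0.000546 and 0.000638.

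Cebpa (mm10 chr7:35119293-35121928, plus strand) and Cebpb (mm10 chr2:167688915-167690418, plus strand, a single exon) were called together in CX3CR1+ and F4/80- cells, and the 250 bases before their starts are shown to let their promoters be compared. The sequences are from RefSeq on GRCm38.p6, the build also named mm10, and capitals mark the matches to 5 motifs that were searched on both strands, namely the TATA box (TATAAA), the core of the cAMP response element (TGACG), a C/EBP site (TTNNGNAA), a PU.1 core (GAGGAA) and a Gfi1 core (AAATCA). No match overlapped another.
Cebpa, chr7:35119043-35119292, plus strand: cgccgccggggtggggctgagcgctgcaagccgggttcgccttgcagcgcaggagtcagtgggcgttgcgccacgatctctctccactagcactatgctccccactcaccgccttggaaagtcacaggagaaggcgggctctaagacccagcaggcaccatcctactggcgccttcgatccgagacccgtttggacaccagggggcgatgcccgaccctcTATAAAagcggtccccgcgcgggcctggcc
Cebpb, chr2:167688665-167688914, plus strand: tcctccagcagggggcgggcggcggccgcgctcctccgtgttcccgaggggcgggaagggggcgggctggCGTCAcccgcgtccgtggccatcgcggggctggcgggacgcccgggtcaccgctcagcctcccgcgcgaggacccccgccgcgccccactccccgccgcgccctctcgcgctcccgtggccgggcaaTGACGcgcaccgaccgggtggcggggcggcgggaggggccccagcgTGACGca
The Cebpa window held 1 TATAAA, 30 bases before the start, a motif found in 12.4% of all 32851 mouse promoter windows of this length. The Cebpb window held no TATAAA and 3 TGACG, whose first bases lay 180 (minus strand), 53 and 7 bases before the start, and 17.8% of windows held at least 1. Neither window held the C/EBP, PU.1 or Gfi1 letters searched, which occur in 36.8%, 23.3% and 12.4% of windows. The windows also differed in composition, with 66.4% G and C for Cebpa and 81.6% for Cebpb, and 99.3% of windows held less than the latter.

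Cebpb, the inflammation-inducible family member that macrophages need to clear bacteria, differed most between the days in CX3CR1+ and F4/80- cells, although neither call was made with an offset for GC content (log2FC 1.76 and 1.74). CX3CR1+ macrophages held 143 and 86.0 CPM on day 1 and 861 and 1015 CPM on day 14. F4/80- cells held 23.3 and 35.01 CPM and then 243 and 228 CPM. CD9+ macrophages held 206 and 251 CPM and then 471 and 551 CPM. The days did not overlap in any of these 3 populations. The rise was 8.19-fold in CX3CR1+ (log2FC 3.03 ± 0.68, SE, edgeR adjusted p = 0.00783) and 8.07-fold in F4/80- cells (3.01 ± 0.68, 0.016), and the 2.24-fold difference in CD9+ macrophages did not pass (1.16 ± 0.64, 0.227). The model takes 1 spread for each gene from all groups, which here included the day 1 neutrophil libraries with 214 and 2502 CPM (2857 and 28503 counts). The day 14 neutrophil libraries held 1532 and 1410.2 CPM. Over time the neutrophil log2FC was 0.12 (adjusted p = 0.913), and it was -0.76 without day 1 library 1 (0.0434) and 2.78 without day 1 library 2 (2.91e-05). The CX3CR1+ call was lost without day 1 CX3CR1+ library 2 (log2FC 2.71, adjusted p = 0.098), and the F4/80- call without any one of its 4 libraries (log2FC 2.76, 3.35, 2.97 and 3.07, adjusted p of 0.18, 0.0902, 0.0777 and 0.0722). Tmem189 overlaps an exon of Cebpb on the other strand and read 46.5 and 30.8 CPM on days 1 and 14 in CX3CR1+ and 25.96 and 19.7 CPM in F4/80- cells, and whether the counting used strand is not given in the sources used here.

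Between populations, Cebpb was lowest in F4/80- cells on both days. CX3CR1+ macrophages exceeded them 3.92-fold on day 1 (edgeR, adjusted p = 0.0288) and 3.98-fold on day 14 (0.0243), and CD9+ macrophages exceeded them 7.82-fold on day 1 (0.00439) without a call on day 14 (2.17-fold, 0.31). The 2 macrophage populations were not told apart on either day, since CD9+ minus CX3CR1+ had a log2FC of 1.00 on day 1 (interval -0.36 to 2.35) and -0.88 on day 14 (-2.22 to 0.47). These calls changed when libraries were left out: the day 1 difference between CX3CR1+ and F4/80- cells was lost without CX3CR1+ library 1 or either F4/80- library (log2FC 1.55, 1.71 and 2.30, adjusted p of 0.159, 0.173 and 0.0798), that of day 14 without any of the 4 libraries compared (log2FC 1.86 to 2.09, adjusted p of 0.0576 to 0.129), and that between CD9+ and F4/80- cells without F4/80- library 1 (2.68, 0.0587). The excess in day 1 neutrophils rested on library 2 of that group: CD9+ minus neutrophil had a log2FC of -2.57 with all libraries, -3.44 without neutrophil library 1 and 0.085 without neutrophil library 2 (adjusted p = 0.8), and the libraries of the 2 groups overlapped. Without that library CX3CR1+ minus neutrophil fell from -3.57 to -0.91 (adjusted p = 0.00792), whereas F4/80- minus neutrophil stayed called at -2.88 (8.55e-07).

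The transcript of Cebpb is rich in G and C, and other genes of that kind moved with it. Its single exon has 67.2% GC, against 62.6% in Cebpa, 61.5% in Cebpe, 58.9% in Spi1, 57.4% in Gfi1, 51.6% in Cebpd and 43.3% in Cebpg. The 47 tested genes over 65% GC had a median log2FC between the days of 0.69 in CD9+, 1.30 in CX3CR1+, 1.45 in F4/80- cells and 1.05 in neutrophils, while the 11591 genes of up to 60% GC had medians of 0.0054, 0.028, -0.023 and -0.016. In CX3CR1+ and F4/80- cells 13 and 15 of the 47 genes were called higher and 0 lower. Between libraries of 1 group, the same 47 genes had a median log2 difference (library 2 minus library 1) of 0.56 in day 1 neutrophils, -0.77 in day 1 CX3CR1+ and 0.33 in day 1 F4/80- cells, each in the direction of Cebpb, and of 0 in day 1 CD9+ cells. On day 14 it lay between -0.15 and 0.19. An offset for classes of GC content, split further below 60% GC, was added once the data had been seen. With it the adjusted p of Cebpb was 0.053 in CX3CR1+ and 0.0895 in F4/80- cells (edgeR). Cebpa, in the class of 60 to 65% GC, stayed called over time in all 3 populations with that offset, but its day 1 calls of CD9+ against CX3CR1+ (log2FC 0.83, adjusted p = 0.0575) and F4/80- cells (0.89, 0.0278) were lost. The part of GC content in the rise of Cebpb was not tested beyond this.

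**Figure D3:**
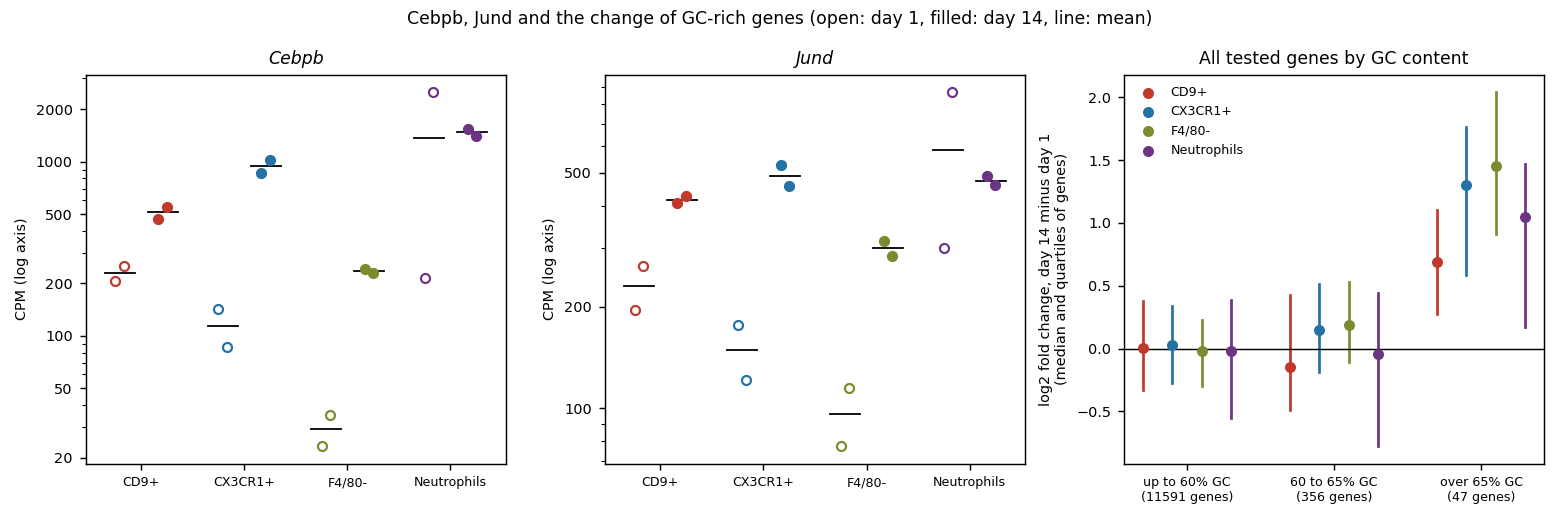
CPM (log axes) of Cebpb and of Jund, the gene most correlated with it, in the 16 libraries (open on day 1, filled on day 14, lines at group means), and, on the right, the median log2FC between days 14 and 1 of tested genes in 3 classes of GC content, with bars between the quartiles of genes. Both genes split the day 1 neutrophil libraries, and the class over 65% GC has medians of 0.69 to 1.45 in the 4 populations.

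Cebpd, the acute phase partner of Cebpb, differed between the days by a similar amount in all 4 populations, and by less than the fold threshold. CD9+ libraries held 87.3 and 44.9 CPM on day 1 and 141 and 99.5 CPM on day 14. CX3CR1+ libraries went from 98.9 and 72.8 CPM to 145 and 154 CPM, F4/80- libraries from 101 and 111 CPM to 202 and 196 CPM, and neutrophil libraries from 267 and 303 CPM to 567 and 516 CPM. Every day 14 library exceeded both day 1 libraries of its population, which carries little weight alone with 2 libraries against 2. The ratios were 1.81, 1.74, 1.88 and 1.90 in CD9+, CX3CR1+, F4/80- and neutrophils (edgeR, adjusted p = 0.024, 0.0381, 0.032 and 0.00851). With scaling by library size the adjusted p was 0.0832 in CX3CR1+ and 0.0655 in F4/80- cells, while CD9+ macrophages reached a called log2FC of 1.03. Calls were also made in CD9+ macrophages without day 1 library 1 (1.42, adjusted p = 0.00025) or day 14 library 2 (1.08, 0.0263), and in neutrophils without day 1 library 2 (1.02, 0.0301). Neutrophils held the most Cebpd on both days, 4.29-fold more than CD9+ macrophages on day 1 (adjusted p = 2.44e-06) and 4.51-fold more on day 14 (1.57e-06), and 2.69-fold and 2.72-fold more than F4/80- cells (8.16e-05 and 7.4e-05), the last 2 being under the fold threshold with scaling by library size (log2FC -0.82 and -0.88). Among the other 3 populations no difference in Cebpd reached the fold threshold, and CD9+ minus F4/80- on day 1 passed on p alone (log2FC -0.67, adjusted p = 0.0457).

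Cebpg, the dimer partner, was the member that moved in opposite directions. Neutrophil libraries held 73.6 and 78.6 CPM on day 1 and 41.3 and 41.7 CPM on day 14, the ranges lying well apart. CX3CR1+ libraries held 45.4 and 35.3 CPM on day 1 and 64.7 and 55.9 CPM on day 14, also without overlap. CD9+ libraries (35.4 and 30.6 CPM, then 32.3 and 46.8 CPM) overlapped between the days, and F4/80- libraries went from 32.3 and 35.01 CPM to 43.6 CPM in both. The log2FC was -0.87 ± 0.18 (SE) in neutrophils (edgeR, adjusted p = 0.00188) and 0.58 ± 0.18 in CX3CR1+ macrophages (0.0417), both under the fold threshold. On day 1 neutrophils held 2.30-fold more Cebpg than CD9+ macrophages (2.73e-05) and 2.26-fold more than F4/80- cells (2.88e-05). With scaling by library size these were log2FC of -0.87 and -0.57, without a call. By day 14 neither difference remained measurable, with log2FC intervals of -0.45 to 0.31 and -0.31 to 0.45.

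Cebpe, the late granulocyte factor, was low in CX3CR1+ macrophages and lay between 32.5 and 160.2 CPM in the libraries of the other populations. CX3CR1+ libraries held 4.35 and 4.29 CPM on day 1 (99 and 82 counts) and 2.35 and 2.60 CPM on day 14 (27 and 28 counts). F4/80- cells, which carry no Ly6G by their gate, held 116 and 101 CPM and then 119 and 130.3 CPM. Neutrophils held 109 and 63.8 CPM and then 155 and 160.2 CPM, and CD9+ macrophages 72.9 and 32.5 CPM and then 97.6 and 97.3 CPM. The lowest of these 12 libraries (32.5 CPM) lay far above the highest CX3CR1+ library (4.35 CPM). F4/80- cells exceeded CX3CR1+ macrophages 25.2-fold on day 1 (edgeR, adjusted p = 5.96e-08) and 50.2-fold on day 14 (2.59e-08), and CD9+ exceeded CX3CR1+ macrophages 12.3-fold (2.61e-06) and 39.3-fold (7.9e-08). F4/80- cells and neutrophils were not told apart on either day (log2FC 0.33, adjusted p = 0.295, and -0.34, 0.283). Over time Cebpe passed on p alone in CD9+ macrophages (log2FC 0.88, adjusted p = 0.0415) and in neutrophils (0.86, 0.0296), and did not pass in F4/80- cells (0.19, 0.766) or CX3CR1+ macrophages (-0.80, 0.229).

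The 2 day 1 CD9+ libraries differed 2.24-fold in Cebpe, in the direction of their neutrophil markers (7197 CPM beside 72.9 CPM of Cebpe, and 2330 CPM beside 32.5 CPM). These marker sums were mostly S100a8 and S100a9. Without the first of them Cebpe reached a called log2FC of 1.59 between the days in CD9+ macrophages (edgeR, adjusted p = 0.000267), and without the second its day 1 difference from F4/80- cells was no longer called (log2FC -0.58 in place of -1.04, adjusted p = 0.0664), nor was it without day 1 F4/80- library 1 (-0.95, 0.0722). In neutrophils Cebpe reached a called log2FC of 1.31 without day 1 library 1 (0.00771). The part of neutrophils in the CD9+ level was not tested.

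Gfi1, the repressor of the macrophage program in granulocytes, rose over time in CD9+ macrophages and neutrophils. CD9+ libraries held 7.21 and 8.24 CPM on day 1 and 32.5 and 27.98 CPM on day 14. Neutrophil libraries held 8.92 and 7.55 CPM and then 26.02 and 23.1 CPM. F4/80- libraries held 29.0 and 26.7 CPM and then 37.9 and 42.2 CPM, the highest on both days, and CX3CR1+ libraries had 13 and 5 counts on day 1, then 0 and 4 counts, at or near the floor of 3 counts. The rise was 3.93-fold in CD9+ macrophages (log2FC 1.97 ± 0.28, SE, edgeR adjusted p = 0.000281) and 2.97-fold in neutrophils (1.57 ± 0.28, 0.00062), and each stayed called when any one library was left out. F4/80- cells exceeded CD9+ macrophages 3.61-fold (adjusted p = 0.000158) and neutrophils 3.37-fold (4.06e-05) on day 1, and on day 14 the difference from CD9+ macrophages did not pass (1.32-fold, 0.377) while that from neutrophils passed on p alone (1.63-fold, 0.0252). All 6 comparisons with CX3CR1+ macrophages were called, with adjusted p of at most 3.08e-06 (edgeR), and folds are not given because they rest on the prior count. Gfi1 passed the filter through the other populations only, so these calls show no more than counts near the floor in CX3CR1+ libraries.

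Markers of other cell types were read beside Gfi1 and Cebpe. In CD9+ libraries the eosinophil markers went from 665 to 677 CPM on day 1 to 7258 to 11780 CPM on day 14, the basophil or mast cell markers from 110 to 196 CPM to 313 to 400 CPM and the progenitor markers from 602 to 899 CPM to 1300 to 2052 CPM, beside the rise of Gfi1 from a mean of 7.73 to 30.3 CPM. In F4/80- cells, where Gfi1 and Cebpe were high on both days, the progenitor markers summed to 2270 to 3064 CPM. The basophil or mast cell markers there went from 1003 to 1199 CPM on day 1 to 1795 to 1959 CPM on day 14. Neither Gfi1 (log2FC 0.52, adjusted p = 0.269) nor Cebpe (0.19, 0.766) passed over time in these cells (edgeR). In CX3CR1+ macrophages, where both were lowest, the 7 basophil or mast cell markers in the table summed to at most 2.69 CPM and 1 of them was above the floor in both libraries of each day. In neutrophils, where Gfi1 also rose, the basophil or mast cell markers went from 21.9 to 27.9 CPM on day 1 to 61.9 to 66.9 CPM on day 14, most of it Kit (17.7 and 15.2 CPM, then 53.96 and 61.95 CPM), while the progenitor markers lay within 125 and 226 CPM on both days and the eosinophil markers within 67.4 and 94.2 CPM. The gate was set to leave out cells with CD34 or c-kit, the products of Cd34 and Kit in these lists. The part of these cell types in the levels of Gfi1 and Cebpe was not tested.

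**Figure D4:**
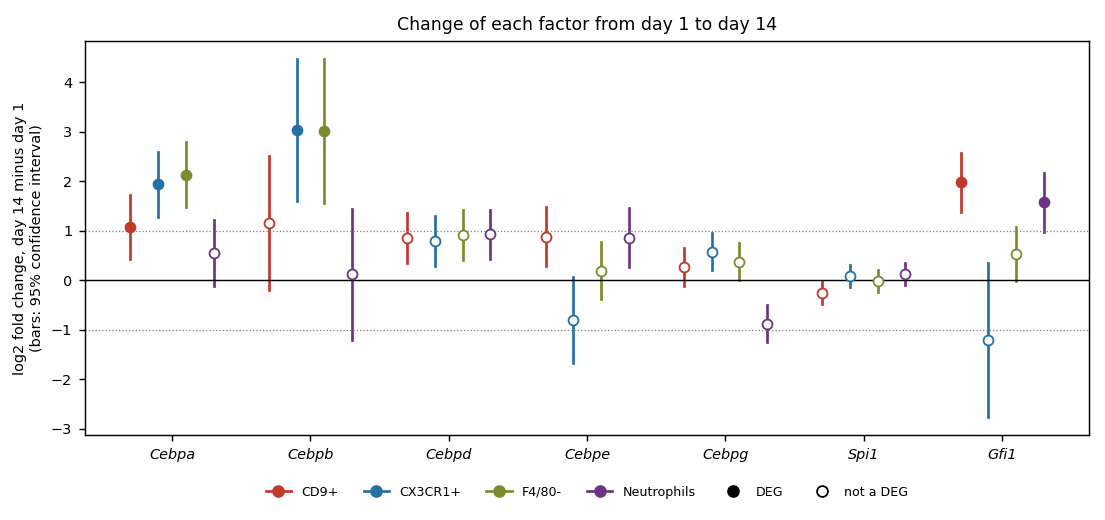
Log2FC between days 14 and 1 (positive is higher on day 14) of the 7 genes in the 4 populations, with 95% confidence intervals from edgeR, filled points for called genes (DEG) and dotted lines at the fold threshold of 1 on the log2 scale. The 7 filled points are Cebpa in 3 populations, Cebpb in CX3CR1+ and F4/80- cells, and Gfi1 in CD9+ macrophages and neutrophils.

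The balance between members was described as the log2 ratio of their CPM in the same library, so that the scaling between libraries cancels. Cebpa to Spi1 went from -2.24 ± 0.080 to -0.92 ± 0.40 (SD, n = 2 a day) in CD9+, from -3.15 ± 0.19 to -1.30 ± 0.035 in CX3CR1+ and from -3.18 ± 0.16 to -1.04 ± 0.0043 in F4/80- cells. In these 3 populations every day 14 library had a higher ratio than either day 1 library, while neutrophils, at -4.56 ± 1.11 and -3.95 ± 0.12, overlapped. Cebpa to Cebpb moved the other way in CX3CR1+ (-1.78 ± 0.30 to -2.91 ± 0.14) and F4/80- cells (-0.047 ± 0.27 to -0.95 ± 0.053), and lay at -1.75 ± 0.24 and -1.86 ± 0.21 in CD9+ macrophages. Cebpb lies in the class over 65% GC and Cebpa in that of 60 to 65%. In CX3CR1+ cells the median log2FC between the days was 1.30 in the class of Cebpb and 0.15 in that of Cebpa. In F4/80- cells these medians were 1.45 and 0.19. The part of GC content in this ratio was not tested. Gfi1 to Spi1 went from -5.34 ± 0.087 to -3.13 ± 0.12 in CD9+ macrophages, close to the -3.17 ± 0.070 of day 1 F4/80- cells. In neutrophils it went from -6.23 ± 0.096 to -4.80 ± 0.13, and in CX3CR1+ macrophages it lay at -9.06 ± 0.54 and -10.12 ± 1.23, where it rests on a prior count of 2. With 2 libraries against 2, an exact permutation test cannot give a p under 0.333, and none is given for the ratios.

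**Figure D5:**
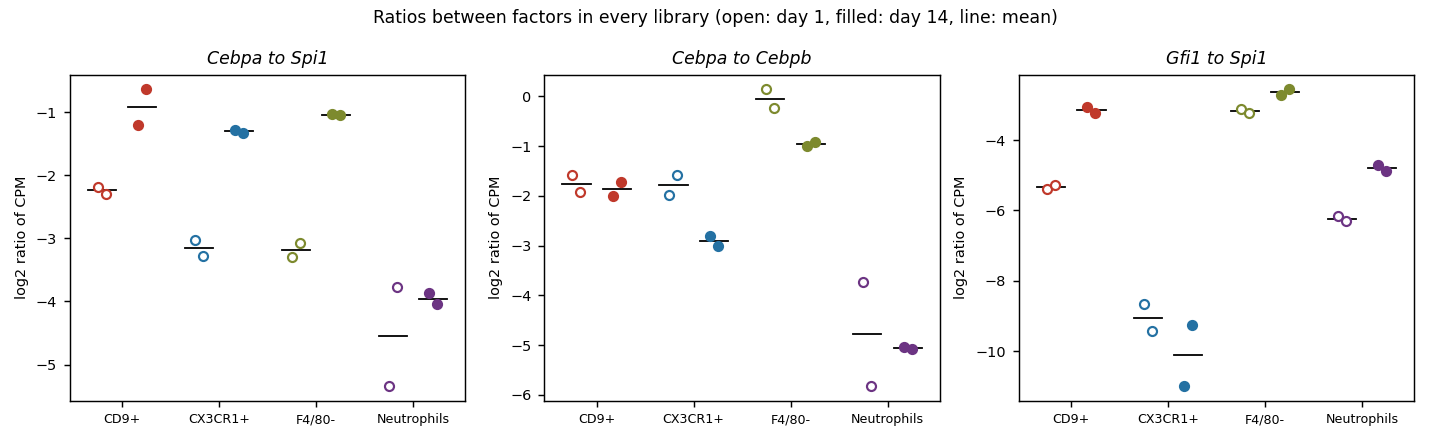
Log2 ratios of Cebpa to Spi1, Cebpa to Cebpb and Gfi1 to Spi1 in the 16 libraries, 1 point a library (open on day 1, filled on day 14) with a line at the mean of each group. Cebpa to Spi1 is higher on day 14 in CD9+, CX3CR1+ and F4/80- cells without overlap, and Gfi1 to Spi1 is lowest in CX3CR1+ macrophages on both days.

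Levels of different genes were compared per kilobase of exon. By group means Cebpb led 6 of the 8 groups and Spi1 the day 1 CX3CR1+ and F4/80- cells, and Gfi1 or Cebpg came last in all 8. On day 1 the order in CX3CR1+ macrophages was Spi1 (107 CPM per kb), Cebpb (76.1), Cebpd (22.9), Cebpa (12.3), Cebpg (7.17), Cebpe (3.48) and Gfi1 (0.131), and by day 14 Cebpb led with 624 CPM per kb before Spi1 (114), Cebpa (47.0) and Cebpd (39.9). In F4/80- cells Cebpe was near the top on both days, with 87.8 CPM per kb beside 93.4 for Spi1 on day 1, and 100.4 beside 157 for Cebpb and 92.8 for Spi1 on day 14. Neutrophils were led by Cebpb (means of 903 and 978 CPM per kb), Spi1 (233 and 254) and Cebpd (76.1 and 144), with Cebpa at 11.4 and 16.7. The lead of Cebpb on day 1 rests on library 2 (1663 CPM per kb), since in library 1 Spi1 (241) lay above Cebpb (142). These values set genes side by side and were not tested.

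The second question was how the populations differed on a given day. Of the 84 tests between pairs of populations, 42 were called and 11 others passed on p alone, beside 32% of the tests of all genes. The calls include every comparison of Gfi1 with CX3CR1+ macrophages. Gfi1 had passed the filter through the other populations only, so those calls show no more than counts near the floor in CX3CR1+ libraries. On day 1, CD9+ and CX3CR1+ macrophages differed in 3 members, Cebpa, Cebpe and Gfi1, all higher in CD9+ cells (8.23% of all genes called). CD9+ and F4/80- cells differed in 4, with Cebpa and Cebpb higher and Cebpe and Gfi1 lower in CD9+ cells (15.4%). CX3CR1+ and F4/80- cells differed in 3, with Cebpb higher and Cebpe and Gfi1 lower in CX3CR1+ cells (21.1%). The comparisons with neutrophils gave 4 members for CD9+ (49.5% of all genes), 5 for CX3CR1+ (51.0%) and 5 for F4/80- cells (49.0%), shares of the members near or above those of all genes. Most of these calls were higher in neutrophils, the exceptions being Cebpa, higher in CD9+, and Gfi1, higher in F4/80- cells. Cebpa was called in 2 further day 1 pairs whose call rested on a library: CD9+ minus F4/80- (log2FC 1.28, adjusted p = 0.00558) fell to 1.16 (0.0621) without F4/80- library 1, and CD9+ minus neutrophil (1.18, 0.00346) to 0.62 (0.0167) without neutrophil library 1.

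On day 14, CD9+ and CX3CR1+ macrophages still differed in Cebpe and Gfi1 (14.2% of all genes called), and CX3CR1+ and F4/80- cells differed in the same 3 members as on day 1 (21.5%). Gfi1 is counted in both, with the limit given above. CD9+ macrophages and F4/80- cells differed in 0 of the 7 by edgeR and 0 by DESeq2, which is near the share of all genes called there (7.70%). Cebpd had an unadjusted p under 0.05 in that comparison (log2FC -0.73, adjusted p = 0.0569). The intervals there still allow differences, from -0.40 to 0.86 on the log2 scale for Cebpa, -0.95 to 0.14 for Gfi1, -0.94 to 0.23 for Cebpe and -0.23 to 2.47 for Cebpb. Against neutrophils, 4 members were called for CD9+ (49.5%), 5 for CX3CR1+ (48.0%) and 4 for F4/80- cells (48.7%), with Cebpa the single member that was lower in neutrophils each time. Of these calls, Cebpb for CD9+ (log2FC -1.53, adjusted p = 0.0447) was lost in 12 of the 16 fits that left out a library, with values of -1.63 to -1.39, and by DESeq2.

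The third question was whether the change over time differed between populations, which was tested as an interaction. Of 42 tests 8 were called, beside 4.97% of the tests of all genes. Cebpg separated neutrophils from each of the other populations, with differences in log2FC of 1.13 ± 0.25 (SE) for CD9+ (edgeR, adjusted p = 0.00965), 1.45 ± 0.25 for CX3CR1+ (0.00125) and 1.25 ± 0.25 for F4/80- cells (0.00443). Together with Cebpg, 1 member was called between CD9+ and neutrophils (8.03% of all genes), 4 between CX3CR1+ and neutrophils (9.09%) and 2 between F4/80- cells and neutrophils (7.73%). The further calls were Cebpb, Cebpe and Gfi1 for CX3CR1+ and Cebpa for F4/80- cells. Gfi1 was the 1 call between CD9+ and CX3CR1+ macrophages (2.28%), and it rests on 13, 5, 0 and 4 counts in the CX3CR1+ libraries. F4/80- cells did not differ from CD9+ (1.69% of all genes) or CX3CR1+ macrophages (1.01%) in the change of any member by edgeR. DESeq2 called 1 and 0 members there, and 2 and 1 had an unadjusted p under 0.05. The larger rise of Cebpb in CX3CR1+ than in CD9+ macrophages is therefore not shown to differ (CD9+ minus CX3CR1+ -1.87 ± 0.89, SE).

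Genes that act with these factors were taken from lists. Of 17 partners of PU.1 and mononuclear fate factors, 13 fell and 0 rose in neutrophils between the days, beside 14.1% of all genes called, with a median log2FC of -2.04 (all genes -0.015). They included Nab2, a corepressor of EGR factors (67.8 to 1.22 CPM), Bhlhe40 (1152 to 93.7 CPM), the AP-1 subunit Jun (2215 to 313 CPM) and Egr2, a factor of macrophage differentiation (224 to 32.6 CPM). In CX3CR1+ macrophages 3 rose and 4 fell (5.86% of all genes called), among them Irf4, a partner that PU.1 recruits to DNA, up from 8.35 to 54.9 CPM (edgeR, adjusted p = 0.000488), with Bhlhe40 and Egr2 down. In the same libraries the 7 dendritic cell markers went from 11.9 to 13.9 CPM on day 1 to 52.98 to 59.1 CPM on day 14, and the neutrophil markers from 1023 to 1074 CPM to 445 to 527 CPM, and their part was not tested. In CD9+ macrophages 1 rose (Irf4, 6.78 to 18.5 CPM) and 3 fell (8.23% of all genes called), among them Nab2 and Egr2. In F4/80- cells only Maf was called, lower on day 14 (3.25%). Spi1 itself was not called over time in any population.

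Of 20 textbook targets of PU.1, 8 fell and 0 rose in neutrophils (median log2FC -0.69, 14.1% of all genes called), including the lipopolysaccharide coreceptor gene Cd14 (2223 to 236 CPM) and the protease gene Ctss (183 to 30.1 CPM). In CD9+ macrophages 3 fell (Cd14, Fcgr1 and Emilin2), beside 8.23% of all genes, and in CX3CR1+ macrophages 1 (Fcgr1, the high affinity IgG receptor), a share near the 5.86% of all genes. The macrophage markers, 4 of which are in this list (Adgre1, Csf1r, Cd68 and Fcgr1), summed to 601 to 610.1 CPM in day 1 and 187 to 192 CPM in day 14 neutrophil libraries. They went from 1564 to 2238 CPM to 994 to 1553 CPM in CD9+ and from 2086 to 2211 CPM to 1477 to 1618 CPM in CX3CR1+ macrophages, and their part in these falls was not tested. Of 17 inflammatory genes with known C/EBP sites, many fell over time, while no call for Cebpb or Cebpd was lower on day 14: 10 fell and 2 rose in CD9+, 9 and 1 in CX3CR1+, 8 and 1 in F4/80- cells and 12 and 1 in neutrophils, with median log2FC of -2.24, -1.13, -0.43 and -2.77, beside 8.23%, 5.86%, 3.25% and 14.1% of all genes called. The arginase gene Arg1 went from 2391 to 38.7 CPM in CD9+ and from 426 to 1.04 CPM in CX3CR1+ macrophages. The nitric oxide synthase gene Nos2 went from 244 to 1.13 CPM in CD9+ macrophages and from 612 to 0.103 CPM in neutrophils, and the acute phase gene Saa3 from 73.8 to 1.34 CPM in CX3CR1+ macrophages.

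Late granule genes, like Cebpe, were mostly lower in CX3CR1+ macrophages. Of 15 late granule genes tied to C/EBPε, 12 were lower and 2 higher in CX3CR1+ than in F4/80- cells on day 14 (median log2FC -6.65, all genes 0.052, 21.5% of all genes called), and 12 lower and 1 higher on day 1 (median -4.76, 21.1%). On day 14 the cathelicidin gene Camp read 5.03 CPM in CX3CR1+ and 2959 CPM in F4/80- cells, Ngp 49.5 and 15033 CPM and the lactoferrin gene Ltf 44.0 and 8466 CPM. Against F4/80- cells, CD9+ macrophages were lower in 10 of the 15 on day 1 and 0 were higher (15.4% of all genes), and lower in 4 and higher in 1 on day 14 (7.70%). Over time 2 of the list rose in neutrophils (Camp, 1320 to 3480 CPM, and Chil3, 1162 to 2502 CPM) and 0 fell (14.1% of all genes), while 1 rose and 2 fell in CD9+ (8.23%), 2 rose and 4 fell in CX3CR1+ (5.86%) and 0 rose and 3 fell in F4/80- cells (3.25%). The list shares Mmp8, S100a8 and S100a9 with the neutrophil markers, so it does not tell C/EBPε activity from neutrophil content.

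The 8 primary granule genes, which promyelocytes make before Cebpe peaks, were mostly higher in F4/80- cells than in the other populations. On day 14 all 8 were lower in CX3CR1+ macrophages (median log2FC -3.82, 21.5% of all genes called), 2 were lower in CD9+ macrophages (7.70%) and 7 were lower in neutrophils (48.7%) than in F4/80- cells, the median log2FC of F4/80- minus neutrophil being 4.93. On day 1 the numbers were 8, 8 and 7 of the 8 (21.1%, 15.4% and 49.0%). Over time Mpo (409 to 970 CPM, edgeR adjusted p = 0.0236), Elane (150 to 336 CPM, 0.0489) and Fcnb (181 to 400 CPM, 0.0313) rose in CD9+ macrophages (8.23% of all genes called). Mpo and Elane are also progenitor markers. Of 14 cofactors of Gfi1 and granulocyte fate factors, 5 rose and 1 fell in CD9+ macrophages (8.23%), including Myb (41.1 to 188 CPM, adjusted p = 4.86e-05), Gata2 (23.96 to 69.9 CPM, 0.00411), Gata1 (3.23 to 15.1 CPM, 0.036) and Zbtb16 (12.8 to 35.2 CPM, 0.0034). Myb is also on the progenitor and Gata2 on the basophil or mast cell marker list, whose sums were higher on day 14 in these libraries. In CX3CR1+ macrophages 3 rose and 1 fell (5.86%), and in neutrophils 2 rose and 1 fell, a share near the 14.1% of all genes.

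The genes whose pattern was most like each member were taken by Pearson correlation of log2 CPM over the 16 libraries, which share populations, days and depth. Cebpe was followed by Camp (r = 0.993), Ffar2 (0.992) and Gca (0.989), and Spi1 by 1810013L24Rik (0.988), Cmtm6 (0.987) and Ndel1 (0.987). Cebpd was closest to Ogfrl1 (0.987), Ranbp9 (0.973) and Dock11 (0.958), and Gfi1 to Nedd4 (0.978), Carmil2 (0.975) and Ankrd28 (0.973). Cebpb was closest to Jund (0.965), Iscu (0.946) and Rab43 (0.935). Jund also split the day 1 neutrophil libraries, with 299.7 and 868 CPM, and rose from a mean of 149 to 491 CPM in CX3CR1+ macrophages. Cebpa was closest to Ubqln2 (0.935), Mrps24 (0.906) and Spg7 (0.906), and Cebpg had the weakest neighbours, Meig1 (0.860), St3gal4 (0.851) and Tsc22d3 (0.851).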

How the data were processed

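Total RNA of sorted cells was made into SMART-Seq Stranded libraries, whose reads the authors trimmed (Cutadapt), placed on mm10 (STAR) and counted per gene of Gencode M23, and the raw counts were deposited for 20200 genes, none with fewer than 17 counts in all. Totals per library lay between 9233952 and 19814119, and a floor of 3 counts covers counting error only, since no molecular identifiers were used. The 11998 genes whose mean CPM reached 3 in any of the 8 groups were scaled with TMM factors, and edgeR 4.0.16 (quasi-likelihood fit and test, R 4.3.3) fitted 1 model with a mean per group. Calls needed a Benjamini-Hochberg adjusted p under 0.05 and a log2FC of at least 1 in size. Nothing in the labels ties replicates to separate animals beyond their numbers, so p-values measure the spread between pools. The members and lists were chosen with earlier results of these data known. Named genes were the members, the 3 tested genes with the highest Pearson correlation with each (log2 CPM, prior count 2), markers, and up to 4 called genes of a list with the largest change. Exon lengths and GC content came from Gencode M21 on the same build, and RefSeq held promoters for 4 of the 7 members. On simulated counts (10869 genes, the CX3CR1+ change over time), 90 of 95 genes changed by 1.5 on the log2 scale and 96 of 97 changed by 2 were called. These counts had the same spread for all genes and no other differences between groups. The recovery therefore does not describe a gene as variable as Cebpb. Alternatives covered scaling, filters, thresholds, replicate blocks, left-out libraries, thinning and DESeq2 1.42.0.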

Additional observations from a re-analysis of the deposited data

Results flagged for a closer look

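In 8 cases a member's change between days 1 and 14 differed between 2 populations by the interaction test of edgeR, given here as the difference in log2FC. Groups of 2 libraries were too small to look for outlying samples. Cebpg fell in neutrophils (adjusted p = 0.00188, under the fold threshold) and gave 3 of the 8, with 1.134 for CD9+ minus neutrophil (adjusted p = 0.00965), 1.454 for CX3CR1+ minus neutrophil (0.00125) and 1.247 for F4/80- minus neutrophil (0.00443). The last 2 stayed called in all 16 fits that left out a library, and the first was lost without day 14 CD9+ library 2 (0.82, adjusted p = 0.073).

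Gfi1 gave 3.177 for CD9+ minus CX3CR1+ (adjusted p = 0.0328) and -2.774 for CX3CR1+ minus neutrophil (0.0263). Both rest on 13, 5, 0 and 4 counts in the CX3CR1+ libraries and were lost in 6 and 4 of the 16 fits that left out a library, with values of 2.19 to 7.59 and -7.21 to -1.81. Cebpe gave -1.664 for CX3CR1+ minus neutrophil (0.0376), lost in 7 of the 16 fits, in which it lay between -2.11 and -1.33. Cebpa gave 1.571 for F4/80- minus neutrophil (0.0309), also lost in 7 of the 16 fits, with values of 0.66 to 2.13, beside day 1 neutrophil libraries of 15.9 and 44.1 CPM. Cebpb gave 2.918 for CX3CR1+ minus neutrophil (0.0469) and was lost in 13 of the 16 fits, with values of 0.258 to 3.796, beside day 1 neutrophil libraries of 214 and 2502 CPM.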

How the results depend on the processing

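The main counts were 7 calls over time (of 28 tests), 42 between populations (of 84) and 8 differences in the change over time (of 42). Over all genes 7.86%, 32% and 4.97% of these tests were called. The calls between populations include those of Gfi1 against CX3CR1+ macrophages, where it lay near the floor. The calls over time fell on Cebpa, Cebpb and Gfi1 only. Dropping the fold threshold gave 15 over time, a filter in every group, which leaves Cebpe and Gfi1 untested, gave 23 between populations, and glmTreat against 1.5-fold gave 2 differences in change. A fit without the neutrophil libraries gave 4 differences in change where the other 3 populations alone had 1. Leaving out 1 library gave 6 to 11 calls over time and 4 to 15 differences in change, with 11 over time without neutrophil day 1 library 2. Differences in change numbered 15 without neutrophil day 1 library 1, 14 without CD9+ day 1 library 1, 4 without CX3CR1+ day 1 library 1 or neutrophil day 14 library 1, and 5 without CD9+ day 14 library 2, either F4/80- day 14 library or neutrophil day 14 library 2. In these fits the group with 1 library left was assumed to vary like the others. For single results, Cebpb over time in neutrophils was -0.5834 with the GC offset, chosen after seeing the data (0.12 in the main test), and -0.7623 to 2.776 over the left-out libraries, and Cebpb in CD9+ minus neutrophils on day 1 was -3.444 to 0.08451. The ends of both ranges come from leaving out day 1 neutrophil library 1 (-0.7623 and -3.444) or library 2 (2.776 and 0.08451). The cause was not tested. The median level over members and groups was 92 CPM, and 101.7 CPM with library size scaling. Of the 21 most similar genes, 9 were among the first 3 by Spearman correlation and 10 by group means. Of 57 called results, 29 were called under all settings run, 19 were lost in some fit without a library and 24 under some other setting. Library size scaling ended the calls of Spi1 and Cebpg against neutrophils and of Cebpd between F4/80- cells and neutrophils, and upper quartile scaling some of these. A fit of the compared libraries alone ended those of Cebpe between CD9+ and F4/80- cells on day 1 and of Gfi1 in both differences in change, and Gfi1 in these was also lost with thinning. The GC offset ended the differences in change of Cebpa, Cebpb, Cebpe and, for CD9+, Cebpg.

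The paper names too few mice for each of the 16 libraries to have its own pool, so libraries of a day shared pools. Which libraries shared a pool is not stated, and the main tests between populations did not pair them. Libraries of a day with the same replicate number had deviations correlated at 0.0132 to 0.144, not all over 0.1. With a replicate block within each day the counts were 7, 42 and 8, and with a block over all libraries 7, 42 and 7. The difference in change of Cebpb between CX3CR1+ and neutrophils was 2.44 (adjusted p = 0.096) and 2.67 (0.0627) with these blocks and not called. Depth limits Gfi1 in CX3CR1+ macrophages, where 3 counts correspond to 0.132 to 0.278 CPM.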

Other observations

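Relatives and regulators of the C/EBP factors were called over time in CD9+ macrophages and neutrophils only. Of the 8 tested genes of this list, 2 fell in neutrophils, beside 14.1% of all genes called, with a median log2FC of -0.49 (all genes -0.015). In CD9+ macrophages 1 fell, beside 8.23% of all genes, with a median of -0.24 (all genes 0.0041). Nfil3, a basic leucine zipper repressor, fell in CD9+ macrophages from 155 to 60.6 CPM (edgeR, adjusted p = 0.000206) and in neutrophils from 375 to 142 CPM (4.21e-05). It lay at 178 and 193 CPM in CX3CR1+ macrophages (0.736). Trib3, a pseudokinase induced by stress, fell in neutrophils from 41.9 to 2.62 CPM (9.74e-06). Its relative Trib1, named after its values were seen, leads C/EBPα to degradation. It was highest in neutrophils at 1790 and 1387 CPM, against 152 to 282 CPM in the other groups. Cebpa was lowest in neutrophils on day 14 only. On day 1 its neutrophil libraries, at 15.9 and 44.1 CPM, overlapped those of CX3CR1+ macrophages (35.9 and 28.8 CPM). A link between Trib1 and the level of Cebpa was not tested.

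Of the genes that overlap members, Spidr lies across an exon of Cebpd on the other strand and read 38.9 and 37.4 CPM on days 1 and 14 in CD9+ macrophages and 107 and 84.03 CPM in neutrophils, where Cebpd went from 285 to 541 CPM. Tmem189, which overlaps Cebpb, read 158 and 229 CPM in the day 1 neutrophil libraries, in which Cebpb read 214 and 2502 CPM.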
